A study of Homo sapiens with 4 samples.

Results

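The 581 genes described here are those that the authors' tables list as sensitive to FOSL1 siRNA in both FaDu and SCC1 cells and that reached 5 CPM (counts scaled to the size of the library) in at least 1 control library. They were found by joining both tables on the gene symbol, which left 678 of the 2770 genes in either table, and by applying that level to the controls. The question is which of these genes start higher in which line before FOSL1 is depleted, and whether the starting level goes with the size of the knockdown ratio. RNA-seq of total RNA covers 4 groups with 1 library each: FaDu with FOSL1 siRNA, SCC1 with FOSL1 siRNA, FaDu with control siRNA and SCC1 with control siRNA, each for 48 h in the same serum-supplemented medium. Both are established human lines of head and neck squamous cell carcinoma, and FaDu derives from the hypopharynx. Each group is a single culture of a single line, so no difference below has a replicate check or a test of the lines as conditions, and the tables of the lines were scaled separately. A fold is followed in parentheses by the exact binomial interval of the read counts at 95% confidence. Such intervals cover counting error only, since the reads carry no molecular identifiers and need not be independent molecules.

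FOSL1 encodes FRA1, a partner of JUN proteins in the dimeric transcription factor AP-1. AP-1 binds short palindromic elements in promoters and enhancers and is an end point of growth factor and MAP kinase signalling. In squamous epithelia and their tumours, AP-1 subunits are known for roles in keratinocyte differentiation, migration and the expression of proteases and cytokines.

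FOSL1 itself started higher in FaDu. It had 774 CPM (8881 reads) in the FaDu control and 133 CPM (1756 reads) in the SCC1 control, 5.84-fold higher in FaDu (5.54 to 6.14). With FOSL1 siRNA it had 36.9 CPM in FaDu and 3.99 CPM in SCC1, so the FaDu level was then 9.26-fold higher (6.79 to 12.9). The depleted FaDu level was below the SCC1 control level, and the order of the lines was the same in both pairs of libraries. ATF2, the other AP-1 family member among these genes, was close in both controls, at 69.3 CPM in FaDu and 58.2 CPM in SCC1.

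The recovered effective library sizes ran from 10365774 to 13242163 reads, and 100% of the deposited CPM values were whole reads within 0.01 of a step. Members under 5 CPM numbered 71 in the FaDu control and 27 in the SCC1 control. Each of these is a member only through the other control, so for them the filter fixed which line was higher. The number of genes the authors tested was inferred as 13796 in each line from the largest ratio of FDR to p-value. This assumes a Benjamini-Hochberg adjustment. Of that number the authors listed 11.2% in FaDu (4.76% higher and 6.44% lower with FOSL1 siRNA) and 13.8% in SCC1 (5.6% higher and 8.19% lower). Of the members, 172 were higher with FOSL1 siRNA in both lines, 395 lower in both and 14 opposite, and nothing is read from these counts, since that listing chose the members. By the authors' deposited table, 121 of the 581 had an FDR under 0.05 in both lines. None of 10 epithelial, 14 fibroblast and 11 endothelial markers was a member, so the squamous identity of the lines could be checked only in part: KRT17 had 794 CPM in the FaDu control and CDH1 101 CPM in the SCC1 control, each listed in that line alone. Of the fibroblast markers 3 were listed, all in FaDu and at most 7.84 CPM in its control, and no endothelial marker was in either table. The ribosomal RNA precursor RNA45S5, a repeat that is no clear single gene, had 901 CPM in the FaDu control and 151 CPM in the SCC1 control. Its part in the differences between the lines was not tested.

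Most of the members started within 2-fold between the lines. Genes that the authors listed in 1 line alone have no level given for the other line and are not covered. The part of listing in both lines in this share was not tested. Of the 581, 73 were at least 2-fold higher in FaDu (12.6%), 129 were at least 2-fold higher in SCC1 (22.2%), and 379 lay between, so that 34.8% differed by 2-fold or more. At 4-fold or more the counts were 20 higher in FaDu and 57 higher in SCC1, and 111 genes were within 1.2-fold. The median log2 ratio of FaDu control over SCC1 control was -0.17, with quartiles at -0.84 and 0.53 and an SD of 1.52 over the 580 genes that had reads in both. Setting that median to 0 gave 100 genes higher in FaDu and 112 higher in SCC1, so that 47.2% of the differing genes were higher in FaDu in place of 36.1%. The split between the lines therefore depends on how the separately scaled tables are aligned, which the data do not fix. Each named gene below keeps its class after that centring, except CDC45, which then lies between, and PTGS2 and SLC39A14, which then count as higher in FaDu.

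**Figure D1:**
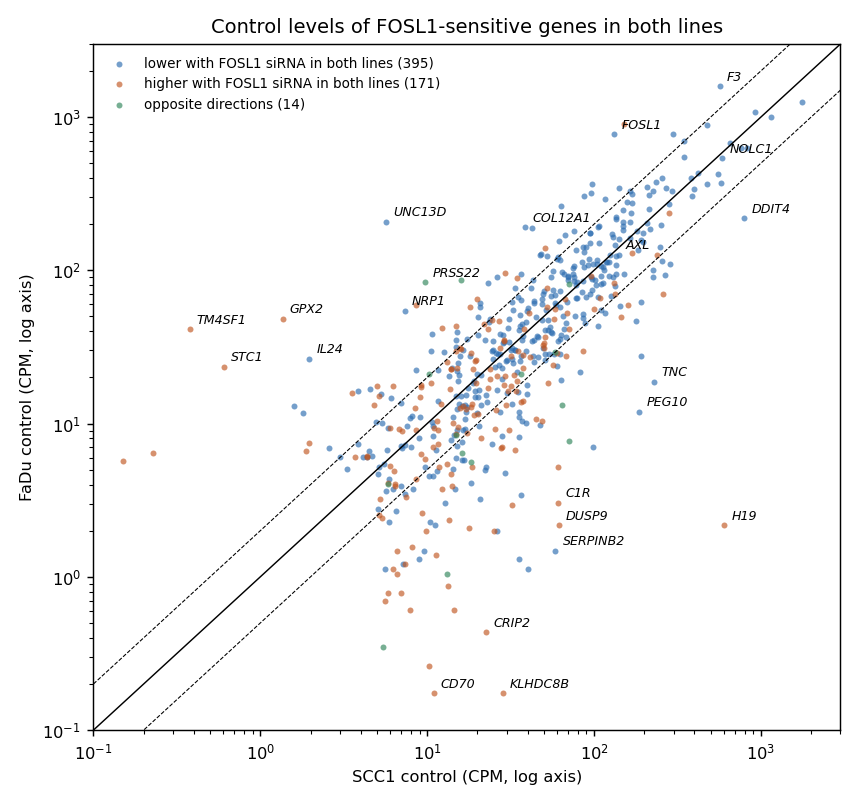
Level of each gene in the FaDu control (vertical, CPM, log axis) against the SCC1 control (horizontal, CPM, log axis); each point is a gene with reads in both, coloured by its direction with FOSL1 siRNA. The solid line marks equal levels and the dashed lines 2-fold; FOSL1, UNC13D and TM4SF1 lie well above it and H19 and SERPINB2 well below.

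Genes with the largest excess in FaDu included a vesicle-priming factor, membrane proteins and secreted factors. UNC13D, needed for the release of secretory granules, had 207 CPM in the FaDu control and 5.66 CPM in the SCC1 control, 36.6-fold higher in FaDu (29.1 to 46.7). TM4SF1, a small membrane protein with several membrane-spanning segments, had 41.3 CPM in FaDu and 0.378 CPM (5 reads) in SCC1, 109-fold higher (46.5 to 338). GPX2, a glutathione peroxidase of epithelia, had 48.3 CPM in FaDu and 1.36 CPM in SCC1, 35.5-fold higher (22.3 to 60.4). TM4SF1 and GPX2 were barely covered in the SCC1 control, while UNC13D was above the 5 CPM level in both lines.

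The hormone-like glycoprotein gene STC1 had 23.5 CPM in the FaDu control and 0.604 CPM (8 reads) in the SCC1 control, 38.9-fold higher in FaDu (19.5 to 91.1). The cytokine gene IL24 had 26.6 CPM in FaDu and 1.96 CPM in SCC1, 13.5-fold higher (9.06 to 21.1). The serine protease gene PRSS22 had 83.6 CPM in FaDu and 9.74 CPM in SCC1, 8.59-fold higher (7.14 to 10.4). These secreted products did not share a direction of knockdown: IL24 was lower with FOSL1 siRNA in both lines, STC1 higher in both, and PRSS22 lower in FaDu and higher in SCC1.

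NRP1, a co-receptor for semaphorins and VEGF, had 54.5 CPM in the FaDu control and 7.33 CPM in the SCC1 control, 7.45-fold higher in FaDu (6.004 to 9.32). SYT12, of the synaptotagmin family, was 6.89-fold higher (5.64 to 8.48), TFR2, a transferrin receptor gene, 8.24-fold higher (5.20 to 13.7), and DSC3, a desmosomal cadherin gene, 5.43-fold higher (4.67 to 6.32). The homeobox gene ALX4 had 74 reads in FaDu and 3 reads in SCC1, a ratio of 28.5 (9.37 to 141) that rests on few reads. With FOSL1, these are the 12 largest excesses in FaDu on log2(CPM + 1). Of them, 5 were higher with FOSL1 siRNA in both lines, 5 lower in both and 2 opposite. Over all members 29.6% were higher in both and 68.0% lower in both. The controls that rank these genes also enter each knockdown ratio, so nothing is read from the counts.

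Genes with the largest excess in SCC1 were led by H19, an imprinted long noncoding RNA. H19 had 2.18 CPM (25 reads) in the FaDu control and 602 CPM (7974 reads) in the SCC1 control, 276-fold higher in SCC1 (187 to 427). PEG10, an imprinted gene derived from a retrotransposon, had 11.9 CPM in FaDu and 187 CPM in SCC1, 15.6-fold higher in SCC1 (13.2 to 18.7). The imprinted gene MEST, added after its values were seen, ran the other way, with 82.6 CPM in FaDu and 23.0 CPM in SCC1. These 3 imprinted genes therefore did not share a direction between the lines.

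SERPINB2, an inhibitor of plasminogen activators, had 1.48 CPM in the FaDu control and 58.6 CPM in the SCC1 control, 39.6-fold higher in SCC1 (24.5 to 68.3). TNC, the matricellular glycoprotein tenascin C, had 18.8 CPM in FaDu and 230.3 CPM in SCC1, 12.2-fold higher (10.7 to 14.1). C1R, a protease that starts the classical complement cascade, had 3.05 CPM in FaDu and 60.8 CPM in SCC1, 19.9-fold higher (14.2 to 28.8). CD70, a ligand of the TNF superfamily, had 2 reads in FaDu and 145 reads in SCC1, a ratio of 62.8 in favour of SCC1 (17.1 to 524). Except for TNC, these secreted or surface products were at 3.05 CPM or less in the FaDu control.

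The remaining leading genes of SCC1 include regulators of signalling and of vesicle traffic. DUSP9, a phosphatase that acts on MAP kinases, was 28.3-fold higher in SCC1 (19.03 to 44.0), with 2.18 CPM in the FaDu control and 61.6 CPM in the SCC1 control. RAB3B, a small GTPase of regulated exocytosis, was 14.0-fold higher in SCC1 (11.2 to 17.8), with 7.06 CPM in FaDu and 99.1 CPM in SCC1. KLHDC8B had 2 reads in FaDu and 375 in SCC1, a ratio of 163 in favour of SCC1 (44.7 to 1347). The SCC1 level of CRIP2, which encodes a LIM domain protein, was 51.8-fold that of FaDu (22.0 to 161), and that of TMEM200B 35.7-fold (20.7 to 67.4). Of these 11 genes with a large excess in SCC1, 5 were lower with FOSL1 siRNA in both lines and 6 were higher in both. Over all members the shares were 68.0% and 29.6%, and again nothing is read from the counts, for the same reason as in the FaDu set.

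**Figure D2:**
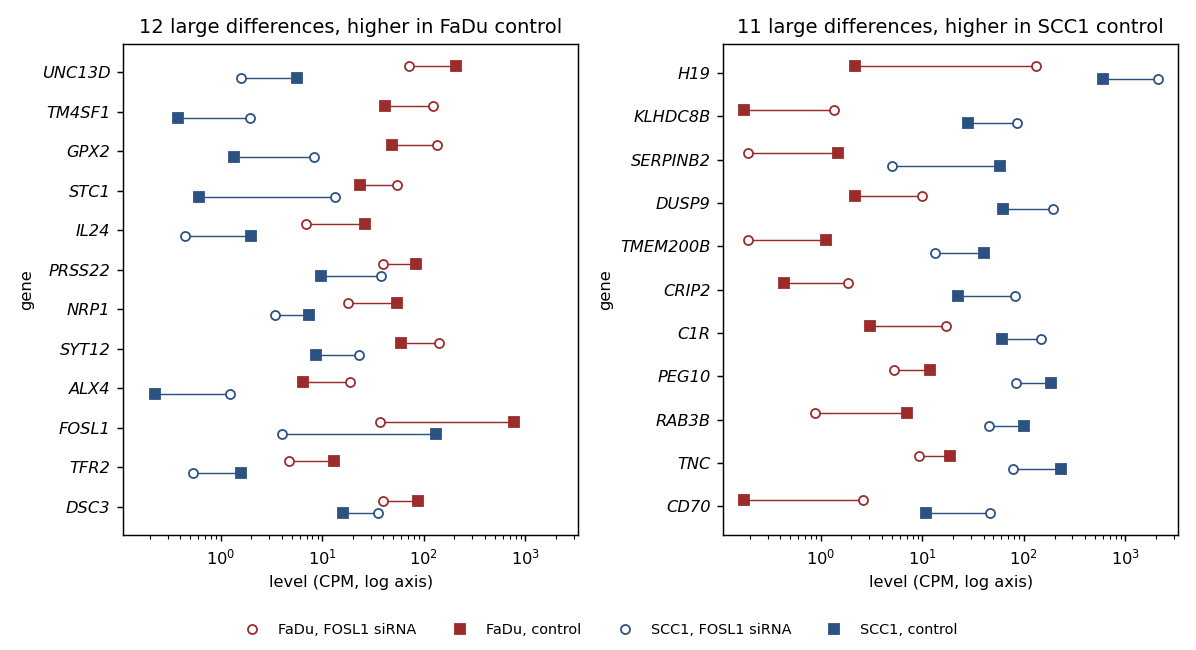
Level (CPM, log axis) of the 12 named genes with a large excess in FaDu (left) and the 11 with one in SCC1 (right) in the 4 libraries; open circles are FOSL1 siRNA, filled squares control, red FaDu and blue SCC1, 1 library each. In the right panel both FaDu values of each gene lie below both of its SCC1 values; in the left panel the siRNA levels of the lines meet for PRSS22 and DSC3.

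The genes named here as close to equal at the start, within 1.2-fold, were chosen for large knockdown ratios in both lines. NOLC1, a nucleolar phosphoprotein gene, had 540 CPM in the FaDu control and 588 CPM in the SCC1 control, 1.09-fold higher in SCC1 (1.05 to 1.13). The receptor tyrosine kinase gene AXL had 127 CPM in FaDu and 141 CPM in SCC1, 1.11-fold higher in SCC1 (1.04 to 1.19). From those near-equal levels AXL was 19.6-fold lower with FOSL1 siRNA in FaDu (15.3 to 25.4) and 7.73-fold lower in SCC1 (6.69 to 8.98). The AXL ratios of the lines thus differed by more than their counting intervals although the controls were within 1.2-fold.

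The remaining near-equal genes chosen by the same rule were PTX3, LYPD3, EPT1 and CLTA. EPT1, an enzyme gene of phospholipid synthesis, had 34.2 CPM with FOSL1 siRNA and 146 CPM in the control in FaDu, and 31.2 CPM with FOSL1 siRNA and 133 CPM in the control in SCC1. Its ratio was 4.28-fold lower in each line. CLTA, a clathrin light chain gene, had 110 CPM in the FaDu control and 98.8 CPM in the SCC1 control, and LYPD3, a GPI-anchored surface protein gene of stratified epithelia, 13.3 CPM in FaDu and 12.1 CPM in SCC1. PTX3, a secreted pattern recognition gene, had 5.49 CPM in the FaDu control and 5.51 CPM in the SCC1 control, too few reads for a close comparison.

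The gene lists are described by counts that can be read against all 581 members, of which 12.6% started higher in FaDu, 22.2% higher in SCC1 and 65.2% between, with 68.0% lower and 29.6% higher with FOSL1 siRNA in both lines. No list was tested, and the largest holds 8 members. In the lists below FGFR3, THBS1, IL1B and GCLC stand outside the rule for named genes and were added after their values were seen. The list of receptors, ligands and ERK outputs holds 31 genes, of which 8 were members: 3 started higher in FaDu, 2 higher in SCC1 and 3 between, with a median log2 ratio of 0.16 against -0.17 over all members. EPHA2, an ephrin receptor gene, had 366 CPM in the FaDu control and 96.8 CPM in the SCC1 control, 3.78-fold higher in FaDu (3.55 to 4.03). The transcription factor gene ETS1 had 292 CPM in FaDu and 117 CPM in SCC1, 2.50-fold higher in FaDu (2.35 to 2.65). DUSP6, a phosphatase that limits ERK activity, was 2.39-fold higher in FaDu (2.18 to 2.62). The ligand gene NRG1 had 90.7 CPM in FaDu and 225 CPM in SCC1, 2.49-fold higher in SCC1 (2.32 to 2.67), and FGFR3, a fibroblast growth factor receptor gene, was 2.37-fold higher in SCC1 (2.06 to 2.73). EGFR, the receptor that leads this pathway, was near-equal at 401 CPM in FaDu and 379 CPM in SCC1.

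The YAP/TAZ target list had 7 members of 24 genes, 2 higher in FaDu, 2 higher in SCC1 and 3 between. Its matricellular members CYR61 and CTGF, which are related proteins of the same family, ran in opposite directions. CYR61 had 304 CPM in the FaDu control and 86.6 CPM in the SCC1 control, while CTGF had 11.8 CPM in FaDu and 35.7 CPM in SCC1. F3, the tissue factor that starts coagulation, had 1586 CPM in FaDu and 568 CPM in SCC1, 2.79-fold higher in FaDu (2.72 to 2.87). NT5E, the ectonucleotidase CD73, had 47.0 CPM in FaDu and 179 CPM in SCC1, 3.82-fold higher in SCC1 (3.47 to 4.20). All 7 were lower with FOSL1 siRNA in both lines, as were 68.0% of all members. Outside the members DLC1, listed in SCC1 alone, was higher with FOSL1 siRNA (28.4 to 80.0 CPM). AMOTL2, NUAK2 and MYOF, listed in FaDu alone, were lower, as were AJUBA, TGFB2, RBMS3 and LPP, listed in SCC1 alone.

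All 4 members of the integrin and adhesion list of 25 lay between, as did 65.2% of all members: ITGB1 had 674 CPM in the FaDu control and 655 CPM in the SCC1 control, ITGB4 435 CPM in FaDu and 419.7 CPM in SCC1, ITGA3 633 CPM in FaDu and 757 CPM in SCC1, and the hyaluronan receptor gene CD44 366 CPM in FaDu and 477 CPM in SCC1. The matricellular and matrix list had 5 members of 26, 2 higher in FaDu and 2 higher in SCC1. COL12A1, a fibril-associated collagen gene, had 191 CPM in FaDu and 38.7 CPM in SCC1, 4.94-fold higher in FaDu (4.49 to 5.45), opposite to TNC. THBS1, which encodes a thrombospondin, lay between at 198 CPM in FaDu and 253 CPM in SCC1.

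Of the 30 genes of matrix proteases and the plasminogen system, 4 were members, none higher in FaDu and 2 higher in SCC1. TIMP2, an inhibitor of metalloproteases, had 5.23 CPM in the FaDu control and 60.5 CPM in the SCC1 control, 11.6-fold higher in SCC1 (8.89 to 15.3), beside SERPINB2. PLAT, tissue plasminogen activator, had 25.2 CPM in FaDu and 44.0 CPM in SCC1, and the carboxypeptidase gene CPA4 18.99 CPM in FaDu and 15.3 CPM in SCC1. Both genes that were higher in SCC1 encode inhibitors, while the proteases PLAT and CPA4 lay between. SERPINB2 passed the 5 CPM level only through the SCC1 control, so for it the filter fixed which line was higher. That leaves TIMP2 alone, and nothing is read from this split.

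Of the 36 cytokine genes, 6 were members. CXCL1, a neutrophil chemokine with closely related copies that make its value uncertain, had 100.02 CPM in the FaDu control and 225 CPM in the SCC1 control. PTGS2, the inducible cyclooxygenase, had 46.1 CPM in FaDu and 23.6 CPM in SCC1, and CSF1, the macrophage growth factor gene, 17.6 CPM in FaDu and 31.9 CPM in SCC1. IL1B, the interleukin 1 beta gene, had 143 CPM in FaDu and 248 CPM in SCC1. IL24 alone of the list exceeded 2-fold in favour of FaDu. It passed the 5 CPM level only through the FaDu control, so the filter fixed which line was higher and nothing is read from it.

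Of 45 keratinocyte differentiation genes 4 were members, all higher with FOSL1 siRNA in both lines (29.6% of all members were). Genes of the list that were listed in 1 line alone did not all rise. With FOSL1 siRNA, KRT80 was lower in FaDu (164 to 83.3 CPM) and EMP1 lower in SCC1 (52.5 to 26.6 CPM). KRT4, KRT13, TGM1, S100A7, S100A8, S100A9, PI3, RHCG, KLF4 and ZNF750, listed in FaDu alone, were higher. TINCR and GRHL3 started higher in SCC1, as did 22.2% of all members. Both passed the 5 CPM level only through the SCC1 control, so the filter fixed which line was higher and nothing is read from it. TINCR, a noncoding RNA that promotes epidermal differentiation, had 0.784 CPM (9 reads) in the FaDu control and 6.95 CPM in the SCC1 control, 8.86-fold higher in SCC1 (4.47 to 19.99). GRHL3, a transcription factor gene of the epidermal barrier, had 0.697 CPM (8 reads) in FaDu and 5.59 CPM in SCC1, which is 8.02-fold more in SCC1 (3.86 to 19.3). OVOL1, a repressor that favours epithelial fate, was low in both, at 6.01 CPM in FaDu and 4.38 CPM in SCC1.

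Of 26 junction genes 2 were members, and both started higher in FaDu, as did 12.6% of all members. TJP3 of the same list, listed in both lines but under 5 CPM in each control, ran the other way. It had 1.39 CPM in the FaDu control and 3.02 CPM in the SCC1 control, and nothing is read from the 2 members. The tight junction gene CLDN4 had 89.3 CPM in the FaDu control and 34.5 CPM in the SCC1 control, 2.59-fold higher in FaDu (2.32 to 2.90), beside DSC3. Of 26 genes of epithelial-mesenchymal transition 3 were members and all lay between. SNAI2, a repressor of epithelial genes, had 47.7 CPM in FaDu and 52.9 CPM in SCC1, and ESRP2, an epithelial splicing regulator, 66.7 CPM in FaDu and 89.3 CPM in SCC1.

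Of 26 NRF2 targets 7 were members, all higher with FOSL1 siRNA in both lines (29.6% of all members were), with 3 starting higher in FaDu, 2 higher in SCC1 and 2 between. Of the 5 that differed by 2-fold, AKR1C2, AKR1C3 and UGT1A6 have uncertain values, as has AKR1C1, which lay between. GPX2 and UGT1A6 passed the 5 CPM level only through the FaDu control, and AKR1C2 and AKR1C3 only through the SCC1 control. For these the filter fixed which line was higher, and nothing is read from the split. Of the 5, GCLC alone was above 5 CPM in both controls. Listed genes outside the members did not all rise. With FOSL1 siRNA, GCLM was lower in FaDu (276 to 130 CPM) and SLC7A11 lower in SCC1 (193 to 82.4 CPM), each listed in that line alone. HMOX1, PGD, ABCC2, GSR, FTL, FTH1 and PIR, listed in SCC1 alone, were higher. GCLC, which makes the first step of glutathione synthesis, had 141 CPM in the FaDu control and 51.0 CPM in the SCC1 control, 2.76-fold higher in FaDu (2.52 to 3.02), and GPX2 is described above. AKR1C3 had 1.39 CPM in FaDu and 11.3 CPM in SCC1, and AKR1C2 1.22 CPM in FaDu and 7.40 CPM in SCC1; these aldo-keto reductase genes are close copies. UGT1A6, whose last exons are common to its whole gene cluster, had 65 reads in FaDu and 2 reads in SCC1.

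Among stress and cell cycle genes, DDIT4, an inhibitor of mTOR signalling, had 219 CPM in the FaDu control and 792 CPM in the SCC1 control, 3.61-fold higher in SCC1 (3.46 to 3.77). GDF15, a secreted stress factor and p53 target, had 64.7 CPM in FaDu and 19.9 CPM in SCC1, 3.26-fold higher in FaDu (2.83 to 3.77). The replication factor gene CDC45 had 52.9 CPM in FaDu and 117 CPM in SCC1, 2.21-fold higher in SCC1 (2.02 to 2.44). The cell cycle genes CDK6, CCNE1 and POLA2 lay between, CDK6 at 132 CPM in FaDu and 87.3 CPM in SCC1. EGLN3, an oxygen sensor gene, and the p53 targets SESN1, BTG2 and GADD45A also lay between. The metal transporter gene SLC39A14 had 191 CPM in FaDu and 105 CPM in SCC1, and the phosphate transporter gene SLC20A1 129 CPM in FaDu and 169 CPM in SCC1. CD68, a lysosomal protein gene and the only leukocyte marker among the members of 14 on the list, had 35.7 CPM in FaDu and 17.3 CPM in SCC1.

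**Figure D3:**
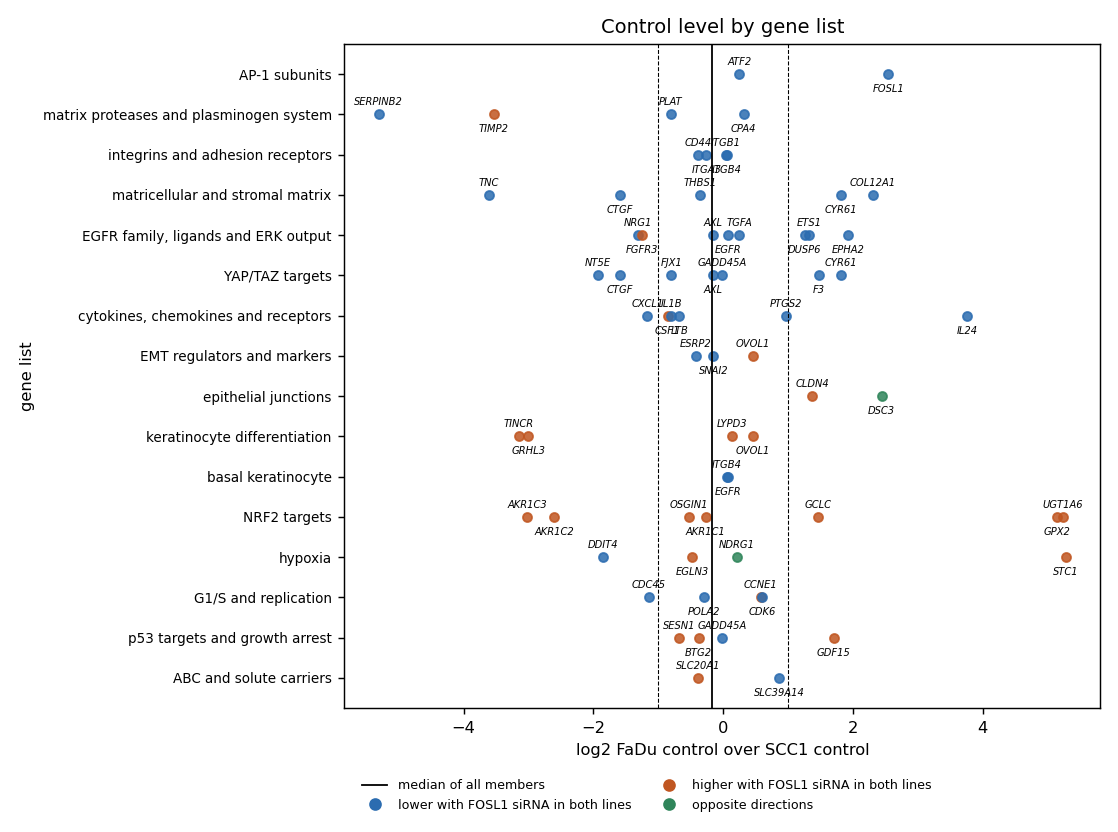
log2 ratio of FaDu control over SCC1 control (horizontal) for the members of each list that holds at least 2 of them (rows); points are genes, coloured by direction with FOSL1 siRNA, the solid line is the median of all members (-0.17) and the dashed lines are 2-fold. The 4 integrin-list members sit within 2-fold, and matrix genes lie on both sides.

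The difference between the lines can be set beside that in the FOSL1 siRNA libraries. The members were chosen for a change in both lines, and 567 of the 581 had the same direction of change in both, so a likeness of the line ratios in the controls and with FOSL1 siRNA follows in part from that choice and nothing is read from its size. Of the 578 genes with reads in all 4 libraries, 504 (87.2%) had the same line higher with FOSL1 siRNA as in the controls. Across these genes the log2 line ratios had a Spearman coefficient of 0.86 and a Pearson r of 0.88, a description over genes that share libraries and are not independent replicates. With FOSL1 siRNA, 84 members were at least 2-fold higher in FaDu (14.5%) and 139 at least 2-fold higher in SCC1 (23.9%). Of the 73 genes that started higher in FaDu, 60 were again at least 2-fold higher there, and of the 126 that started higher in SCC1 with reads in all libraries, 106 were.

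Among named genes, the line difference was smaller or larger with FOSL1 siRNA in several, and in some the other line was higher. DUSP6, 2.39-fold higher in FaDu in the controls, was 1.27-fold higher in SCC1 with FOSL1 siRNA (1.03 to 1.57). FGFR3, 2.37-fold higher in SCC1 in the controls, was 1.39-fold higher in FaDu with FOSL1 siRNA (1.32 to 1.48). PRSS22 had 39.6 CPM in FaDu and 37.6 CPM in SCC1 with FOSL1 siRNA, a ratio of 1.05 (0.916 to 1.21), from an 8.59-fold start. DSC3 had 39.3 CPM in FaDu and 35.7 CPM in SCC1 with FOSL1 siRNA, a ratio of 1.10 (0.955 to 1.26), from a 5.43-fold start. RHOBTB3 moved apart: it was 9.24-fold higher in SCC1 in the controls (7.42 to 11.6) and 54.2-fold higher in SCC1 with FOSL1 siRNA (38.1 to 80.0). STC1 was 38.9-fold higher in FaDu in the controls and 4.08-fold higher in FaDu with FOSL1 siRNA (3.40 to 4.92). H19 was 276-fold higher in SCC1 in the controls and 15.7-fold higher in SCC1 with FOSL1 siRNA (14.8 to 16.5).

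**Figure D4:**
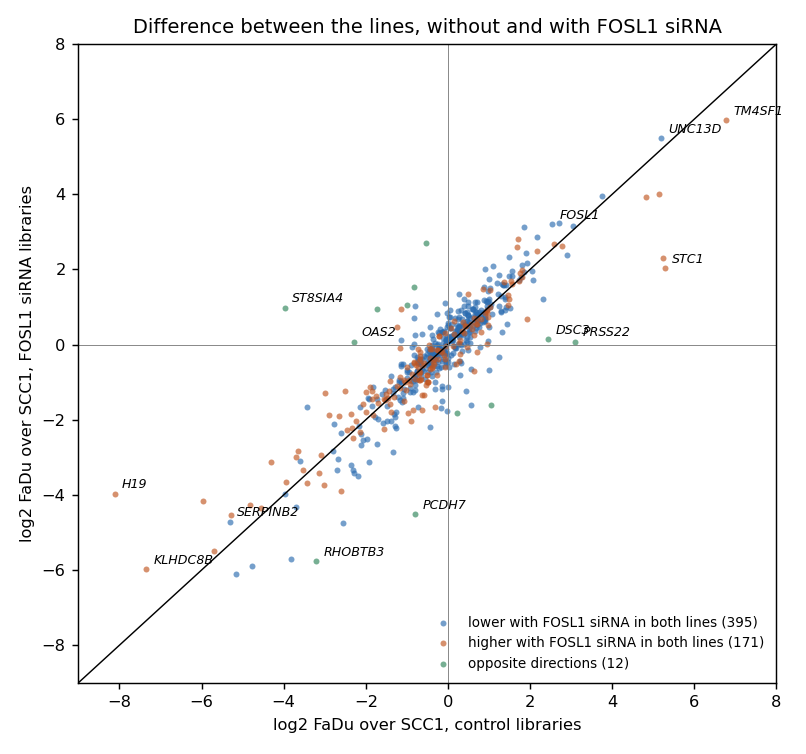
log2 ratio of FaDu over SCC1 with FOSL1 siRNA (vertical) against the same ratio in the controls (horizontal) for the 578 genes with reads in all 4 libraries; the solid line marks equal ratios and colours give the direction with FOSL1 siRNA. Most points follow the line, and the genes of opposite direction, such as PRSS22, DSC3 and ST8SIA4, lie off it.

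Starting levels are given here by direction of knockdown. Of the 395 genes lower with FOSL1 siRNA in both lines, 47 started at least 2-fold higher in FaDu and 65 at least 2-fold higher in SCC1, which is 11.9% and 16.5%. Of the 172 genes higher with FOSL1 siRNA in both lines, 23 started higher in FaDu and 58 higher in SCC1, which is 13.4% and 33.7%. The median log2 ratio of FaDu control over SCC1 control was -0.05 in the first set and -0.52 in the second. The control libraries that set the starting ratio also set each knockdown direction, so this is a description of the values and not a separate result.

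A relation of starting level to the size of the ratio can be read only across lines, since a ratio holds its own line's control. Among the 395 genes lower in both lines, the SCC1 control level and the size of the FaDu ratio had a Spearman coefficient of -0.20, and the FaDu control level and the size of the SCC1 ratio a coefficient of -0.14. Among 171 genes higher in both lines with reads in all libraries, the coefficients were -0.17 and -0.29. These are weak and are no finding. With 1 CPM added to every level the first 2 became 0.07 and 0.06, and the last 2 became -0.01 and -0.25. The authors' threshold moves with them: in the FaDu table the smallest listed fall was 2.20-fold for genes under 5 CPM in the control and 1.88-fold for genes of 100 CPM or more, and the median listed falls were 3.89-fold and 2.31-fold. The part of that threshold in the weak relation was not tested.

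Median ratios were also taken by control level of the other line, in bands of which several hold few genes. Genes lower in both lines with under 5 CPM in the SCC1 control (14 genes) had a median FaDu ratio of 3.95-fold, those of 5 to 20 CPM (94 genes) 3.13-fold, those of 20 to 100 CPM (188 genes) 2.45-fold and those of 100 CPM or more (99 genes) 2.53-fold. For the SCC1 ratio by FaDu control level the medians in the same bands were 3.16-fold, 2.77-fold, 2.59-fold and 2.65-fold. For genes higher in both lines the median FaDu ratios by SCC1 control level were 2.77-fold, 2.59-fold, 2.48-fold and 2.40-fold, over 13, 81, 66 and 11 genes, and the median SCC1 ratios by FaDu control level 3.07-fold, 2.53-fold, 2.37-fold and 2.34-fold, over 37, 67, 62 and 5 genes.

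The median ratios of both lines are given side by side for the genes of each starting class. Among genes higher with FOSL1 siRNA in both lines that started higher in SCC1 (57 genes with reads in all libraries), the median was 3.32-fold in FaDu and 2.43-fold in SCC1, and 44 of them had the larger ratio in FaDu. Among those that started higher in FaDu (23 genes), the medians were 2.81-fold in FaDu and 2.81-fold in SCC1. Among genes lower in both lines that started higher in SCC1 (65 genes), the medians were 3.28-fold in FaDu and 2.79-fold in SCC1, and among those that started higher in FaDu (47 genes), 2.72-fold in FaDu and 2.98-fold in SCC1. The knockdown ratios and the starting ratio share their control libraries, so no relation is read from these values.

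**Figure D5:**
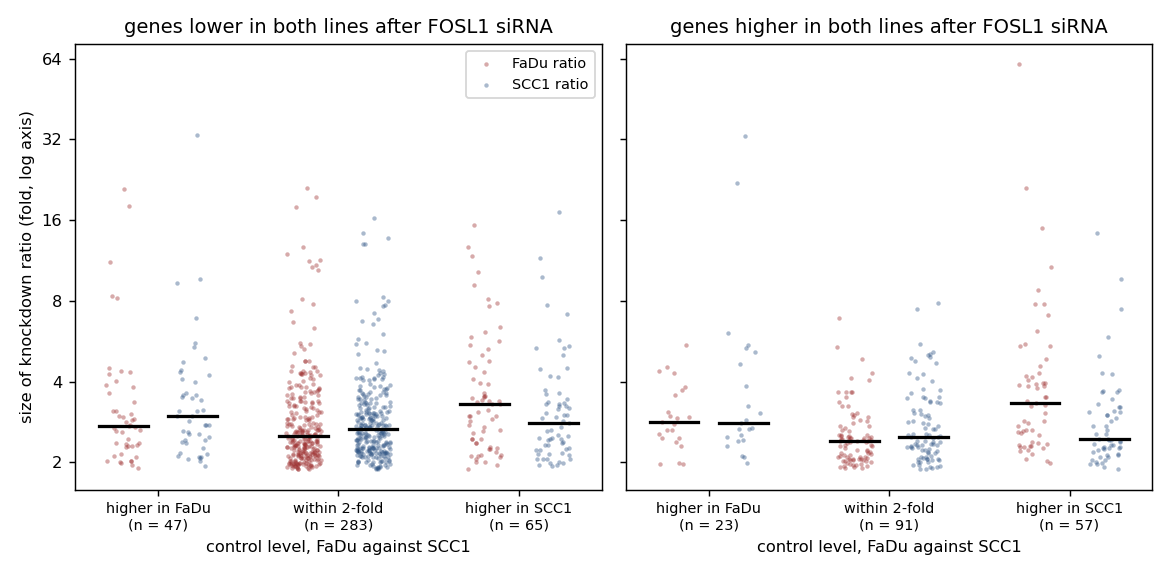
Size of the knockdown ratio (fold, log axis) in FaDu (red) and SCC1 (blue) for genes lower (left) and higher (right) with FOSL1 siRNA in both lines, by which control started at least 2-fold higher; points are genes and bars are medians. The widest gap between bars is for genes higher in both that started higher in SCC1, at 3.32-fold in FaDu and 2.43-fold in SCC1.

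Of the 14 genes of opposite direction, 3 started higher in FaDu, 6 higher in SCC1 and 5 between. Over all members the shares were 12.6%, 22.2% and 65.2%. The counts include genes of uncertain value, among them SMN1, NOMO3 and the readthrough model COMMD3-BMI1, which counts as higher in SCC1. Nothing is read from this split. OAS2, an interferon-induced antiviral enzyme gene, had 28.4 CPM with FOSL1 siRNA and 13.2 CPM in the control in FaDu, and 26.9 CPM with FOSL1 siRNA and 64.1 CPM in the control in SCC1. ST8SIA4, a polysialyltransferase gene, had 40 reads with FOSL1 siRNA and 4 in the control in FaDu, and 22 reads with FOSL1 siRNA and 72 in the control in SCC1. ARTN, a neurotrophic ligand gene, had 57.0 CPM with FOSL1 siRNA and 29.4 CPM in the control in FaDu, and 27.7 CPM with FOSL1 siRNA and 58.4 CPM in the control in SCC1. In OAS2, PRSS22 and DSC3 the siRNA levels of the lines lay within 1.2-fold of each other. SMN1 and NOMO3 are also in this set but have near-identical copies, as does H3F3A of the genes higher in both lines, with 0 reads for FaDu and 309 for SCC1 in the controls. The 3 genes are uncertain and get no fold.

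Promoter sequence was examined for the core AP-1 element, spelled TGANTCA, which reads the same on both strands. RefSeq promoters (build GRCh38.p14, 250 bases before to 50 after the start) were matched by symbol for 415 of the 581 genes. The element was in 22 of them, or 5.30%, and in 7.76% of all 27305 promoters of that table. It was in 4 of 49 genes that started higher in FaDu (8.16%), 8 of 87 that started higher in SCC1 (9.195%) and 10 of 279 between (3.58%). A match is a description of letters, and no match concerns this window alone. The stretches below come from 4 members, 3 named above and VAV3, chosen after their values were seen to show the element where it occurs in genes of each class; capitals mark it.
F3 (higher in FaDu, chr1:94541918-94542009, minus strand): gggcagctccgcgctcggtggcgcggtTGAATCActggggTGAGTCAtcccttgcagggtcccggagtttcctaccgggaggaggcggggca
CPA4 (between, chr7:130293068-130293160, plus strand): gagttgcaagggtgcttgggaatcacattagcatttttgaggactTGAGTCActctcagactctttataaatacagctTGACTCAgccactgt
RAB3B (higher in SCC1, chr1:51990768-51990864, minus strand): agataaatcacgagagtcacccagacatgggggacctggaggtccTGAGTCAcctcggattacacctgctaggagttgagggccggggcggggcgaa
VAV3 (higher in SCC1, chr1:107688564-107688660, minus strand): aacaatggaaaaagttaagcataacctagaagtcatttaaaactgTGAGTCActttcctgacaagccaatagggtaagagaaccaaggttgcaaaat

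F3 and CPA4 each hold 2 copies of the element, 223 and 210 bases before the start in F3 and 48 and 15 bases before it in CPA4. RAB3B holds 1 at 119 bases and VAV3, a guanine nucleotide exchange factor gene, 1 at 116 bases. These 4 genes did not share a direction: F3, CPA4 and RAB3B were lower with FOSL1 siRNA in both lines, while VAV3 had 6.17 CPM with FOSL1 siRNA and 0.871 CPM in the control in FaDu, and 78.5 CPM with FOSL1 siRNA and 13.4 CPM in the control in SCC1.

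By chromosome, in the same promoter table, the median log2 ratio of FaDu control over SCC1 control ran from -0.81 on chromosome 4 (12 genes) to 0.45 on chromosome 7 (18 genes), counting chromosomes with at least 10 matched genes. Chromosomes X (16 genes) and 5 (19 genes) were also low, at -0.73 and -0.72, and chromosomes 12 (24 genes) and 16 (23 genes) were high, at 0.42 and 0.40. Copy number of the lines was not analysed here.

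At the level threshold, the members just inside were STEAP1, with 5.05 CPM in the FaDu control and 3.32 CPM in the SCC1 control, and ZCWPW1, with 2.79 CPM in FaDu and 5.06 CPM in SCC1. Just outside were P2RY6, with 0.610 CPM in FaDu and 4.98 CPM in SCC1, and TMPRSS13, with 4.70 CPM in FaDu and 1.13 CPM in SCC1.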

How the data were processed

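For each line the authors deposited a table of the genes they called, which holds CPM values for both libraries, a signed fold, a p-value and an FDR, per the file headers. TopHat, Cufflinks and build hg18 are named per the submitters' processing notes; roles, versions, the counter and the normalization were not given in the sources used here. Every CPM value in the deposited tables was a whole multiple of the value of 1 read, and reads were recovered from these steps. Each deposited p-value was under 0.05.

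Both tables were joined on the gene symbol, and genes with 5 CPM or more in either control were kept. Ratios of CPM carry exact binomial intervals at 95% confidence, and a 2-fold difference counted as higher. Named genes were FOSL1, the 12 largest differences each way on log2(CPM + 1), up to 4 per list, opposite and near-equal genes, and those at the level threshold; 32 members with close copies or readthrough models were left out of the rankings by size, and 1 gene that the rule names is not reported here. The members, the 22 gene lists and the rule were chosen with earlier results of these data known. As an alternative chosen after seeing the data, the count test on the recovered reads (edgeR 4.0.16, R 4.3.3, likelihood ratio test) was run at assumed dispersions of 0.05 and 0.16; it compares libraries and not conditions. Intervals and that test were tested on simulated data. Scripts ran in Python 3.11.15 with SciPy 1.17.1, pandas 2.3.3, matplotlib 3.10.9 and numpy 2.4.6.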

Additional observations from a re-analysis of the deposited data

Results flagged for a closer look

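For 9 genes given by the naming rule the ratio of FOSL1 siRNA over control had opposite signs in the lines. With 1 library per group the difference was not tested. PCDH7, described below, and the uncertain SMN1, NOMO3 and COMMD3-BMI1 were opposite as well and are not among the 9. The log2 ratio in FaDu minus that in SCC1 was positive, with the gene higher with FOSL1 siRNA in FaDu and lower in SCC1, for ST8SIA4 (4.95), SLC16A14 (2.36), OAS2 (2.35) and ARTN (2.04). It was negative, with the gene lower with FOSL1 siRNA in FaDu and higher in SCC1, for PRSS22 (-3.03), UAP1L1 (-2.66), RHOBTB3 (-2.55), DSC3 (-2.30) and NDRG1 (-2.04). ST8SIA4 rests on 4 reads in the FaDu control. NDRG1, a stress- and hypoxia-responsive gene, had 81.7 CPM in the FaDu control and 70.4 CPM in the SCC1 control, and 41.4 CPM in FaDu and 147 CPM in SCC1 with FOSL1 siRNA. PCDH7, a protocadherin gene outside the naming rule, was chosen after its values were seen. It was also lower with FOSL1 siRNA in FaDu and higher in SCC1, with authors' signed folds of -6.06 and 2.16. With FOSL1 siRNA it had 3.47 CPM in FaDu and 79.3 CPM in SCC1, 22.8-fold higher in SCC1 (16.4 to 32.8). In the controls it had 21.1 CPM in FaDu and 36.6 CPM in SCC1.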

How the results depend on the processing

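Counts of genes that started higher in FaDu (73) and in SCC1 (129) moved with the threshold: 137 and 201 at 1.5-fold, 20 and 57 at 4-fold, and 17 and 29 among genes with the authors' FDR under 0.05 in both tables. Asking for 5 CPM in both controls left 56 higher in FaDu and 71 higher in SCC1. The count test called 63 and 107 at a dispersion of 0.05, but 14 and 35 at 0.16, so the number of differing genes depends on the assumed spread, which single libraries cannot give. At the near end of the counting interval 60 and 102 genes were 2-fold apart. Centring moved the median log2 ratio to 0.

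Genes at least 2-fold higher in the same line in both pairs of libraries, 60 in FaDu and 106 in SCC1, numbered 113 in FaDu at 1.5-fold, 15 and 44 at 4-fold and 14 and 23 under the FDR threshold, and 55 in SCC1 with 5 CPM in both controls. The Spearman coefficient between line ratios stayed within 0.1 under the alternatives run.

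Spearman coefficients of level with ratio size were not stable in size. Only that of the FaDu level with the SCC1 ratio, for genes higher in both, stayed negative in every setting. For genes lower in both lines, the SCC1 level with the FaDu ratio gave -0.0904 with 5 CPM in both controls, 0.0664 with a pseudocount of 1 CPM and -0.32 under the FDR threshold, and the FaDu level with the SCC1 ratio 0.0617 and -0.27 under the last 2 settings. For genes higher in both, the SCC1 level with the FaDu ratio gave -0.28 with a 1 CPM minimum and -0.34 with no minimum. It gave 0.0094 with 5 CPM in both controls and -0.0104 with the pseudocount. The FaDu level with the SCC1 ratio gave -0.40 with no minimum and -0.46 under the FDR threshold. It gave -0.22 with 5 CPM in both controls and -0.25 with the pseudocount. The causes were not tested. No paired analysis was possible because each group has 1 library, and no library could be left out.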
